A study of Homo sapiens with 6 samples.

Results

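The PHLDA genes encode small proteins built around a pleckstrin homology domain, a fold that binds phosphoinositide lipids at membranes, and the family is known for competing with the kinase AKT for those lipids. This report covers the PHLDA family, PHLDA1, PHLDA2 and PHLDA3, together with SLC22A18, CDKN1C and NAP1L4, which lie beside PHLDA2 on chromosome 11. These 6 genes, out of 22933 gene symbols in the table, were chosen by symbol with their measured difference between the groups already known, so their values are a description and no test was run on them. The cells were PC-3, an established line from a bone metastasis of a human prostate adenocarcinoma. All cells carried the rtTA2 transactivator, which drives a retroviral transgene in the presence of doxycycline (Dox), and all were given 300 ng/ml Dox for 4 hours. The 3 tdTom samples carried a tdTomato virus without TTP and the 3 TTP-tdTom samples one with TTP, an RNA-binding protein that delivers mRNAs with AU-rich elements to decay. In both, rtTA2 cells had been selected with G418 and the cells with the second virus sorted by flow cytometry, and all came from 1 cell line.

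The deposited table holds 1 FPKM value (fragments per kilobase of transcript, scaled to the number of mapped fragments) per group at each of 406165 assembled loci on the GRCh37 assembly. No value per sample was used here, and neither a spread between replicates nor the depth behind a value can be given, and no difference below was set against replicate error. The epithelial markers KRT8, KRT18, KRT19 and EPCAM had FPKM values between 15.1 and 98.2 in both groups and CDH1 was at 0.119 and 0.390 FPKM. Of the prostate luminal markers, KLK3 had 1.12 FPKM in tdTom and 0.681 FPKM in TTP-tdTom. The endothelial markers were all under 1 FPKM, as were those of leukocytes other than CD68, which had 323.2 FPKM in tdTom and 262.1 in TTP-tdTom. Of the fibroblast markers COL1A1 had 4.34 and 4.56 FPKM and COL3A1 had 2.46 FPKM in tdTom and was listed at 0 in TTP-tdTom. In bulk RNA, fewer cells that express a gene and less RNA of it per cell cannot be told apart. The ZFP36 locus, which encodes TTP, was listed at 5.56 FPKM in tdTom and 5.54 in TTP-tdTom, so this locus does not mark the group labelled TTP-tdTom. By immunoblot the authors detected TTP protein in PC-3 cells with the TTP virus at 4 hours of Dox. Whether transgene fragments were counted at the ZFP36 locus was not tested.

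PHLDA2 was the member with the highest FPKM in tdTom cells and the lowest log2 difference, which on the deposited scale was also the furthest from 0. PHLDA2 stays the lowest of the 6 under any rescaling of the groups. After rescaling over all loci PHLDA2 is at 0.776, then the nearest to 0. It is an imprinted gene, expressed from the maternal copy, and is best known for restraining growth of the placenta. PHLDA2 had 97.6 FPKM in tdTom and 19.6 FPKM in TTP-tdTom, a log2 difference of -2.32 (TTP-tdTom over tdTom), so that 20.1% of the tdTom level was left. PHLDA1, a gene induced by growth factors and stress, had 13.4 FPKM in tdTom and 5.16 FPKM in TTP-tdTom, a log2 difference of -1.38 with 38.5% left. PHLDA3, a p53 target gene, had 4.71 FPKM in tdTom and 5.26 FPKM in TTP-tdTom, a log2 difference of 0.16. On this scale 2 of the 3 genes, chosen with this contrast known, were lower in TTP-tdTom by more than 2-fold. Of all symbols that reached 1 FPKM in both groups, 7.92% were lower by at least 2-fold. Rescaling both groups to the same FPKM sum over all loci adds 3.09 to every log2 difference and puts all 3 genes above 0. Of all loci, 92.6% have no symbol. The same rescaling over the loci with a symbol adds 0.052, with PHLDA2 at -2.26, PHLDA1 at -1.32 and PHLDA3 at 0.209.

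The chromosome 11 neighbours had nearly equal values in both groups. NAP1L4, a histone chaperone of the NAP1 family, had 29.5 FPKM in tdTom and 27.7 FPKM in TTP-tdTom, a log2 difference of -0.093. SLC22A18, a membrane transporter that is imprinted like PHLDA2, had 7.90 FPKM in tdTom and 8.63 FPKM in TTP-tdTom, a log2 difference of 0.13. CDKN1C, which encodes the CDK inhibitor p57Kip2 and is imprinted too, was the lowest member at 0.931 FPKM in tdTom and 0.771 FPKM in TTP-tdTom, a log2 difference of -0.27 between values that were both under 1 FPKM.

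**Figure D1:**
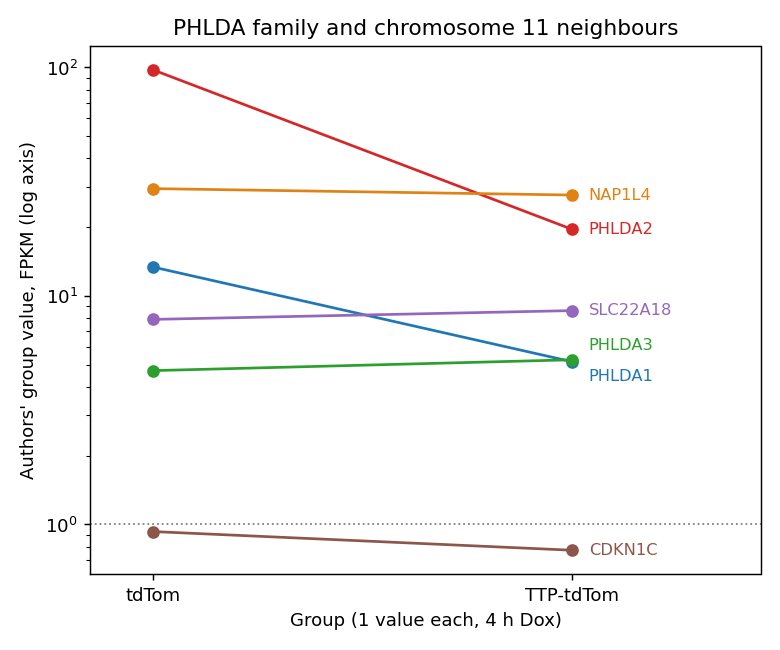
FPKM of each member in the tdTom and TTP-tdTom groups, on a log axis, with 1 authors' value per group and no error; the dotted line is 1 FPKM. The PHLDA2 line runs from 97.6 down to 19.6 and crosses that of NAP1L4. PHLDA1 comes down to the level of PHLDA3, and the other lines are nearly flat. Values rescaled over all loci would all be higher in TTP-tdTom. Rescaling over the loci with a symbol would add 0.052 to each log2 difference.

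TTP binds AU-rich elements in 3′ untranslated regions, for which the heptamer UAUUUAU is the usual core. On the transcript strand, the longest 3′ untranslated region that GENCODE release 29 gives a gene was searched for UAUUUAU and for the pentamer AUUUA, which every heptamer contains. Such a match is a description of the sequence and not a shown binding site. PHLDA2 held 1 heptamer in 405 bases, PHLDA1 held 3 in 4672 bases, and PHLDA3 held 0 in 1858 bases. NAP1L4 held 2 overlapping heptamers in 1242 bases, CDKN1C held 1 in 703 bases, and SLC22A18 held 0 in 49 bases. The number of AUUUA pentamers was 14 in PHLDA1, 1 in PHLDA2 and 2 each in PHLDA3, CDKN1C and NAP1L4, with 0 in SLC22A18. For CDKN1C, 3 transcripts tie at 703 bases, and the other two hold 3 pentamers and the same number of heptamers. The heptamers of PHLDA2 and PHLDA1, 1 of the 2 pentamers of PHLDA3 and, for comparison, 1 heptamer each in the neighbours that hold the heptamer at nearly equal FPKM in both groups are printed here as DNA from 5′ to 3′, all on the minus strand of GRCh38, with that heptamer or, in PHLDA3, that pentamer in capitals. The other heptamer of NAP1L4 begins inside the printed one, at 696 bases after the stop codon against 692.
PHLDA2 (chr11:2928510-2928538): taatatctatgTATTTATttcgctggttc
PHLDA1, 220 bases after the stop (chr12:76029882-76029910): aagaagactttTATTTATgaacctttgaa
PHLDA1, 315 bases after (chr12:76029787-76029815): tgatttatgatTATTTATtagtttttttt
PHLDA1, 2694 bases after (chr12:76027408-76027436): gtctgctgtgaTATTTATgttgaccttta
PHLDA3 (chr1:201465177-201465205): tgtctccctgtcATTTAtactctcaggct
CDKN1C (chr11:2883531-2883559): cttatattttcTATTTATgtccaggcgtg
NAP1L4 (chr11:2944970-2944998): gggtcacctcaTATTTATttatcccttct

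**Figure D2:**
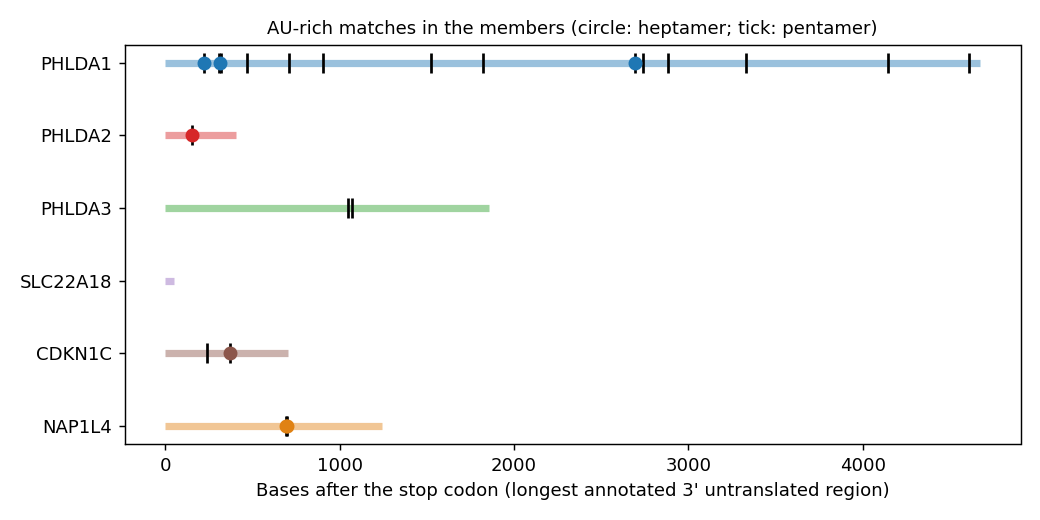
The longest annotated 3′ untranslated region of each member as a bar, in bases after the stop codon, with circles at UAUUUAU heptamers and ticks at AUUUA pentamers. PHLDA1 has the longest bar, 4672 bases with 3 heptamers and 14 pentamers, PHLDA2 has 1 heptamer in 405 bases, and PHLDA3 has 0 heptamers in 1858 bases.

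Among symbols, 12032 reached 1 FPKM in tdTom and in TTP-tdTom alike, and their median log2 difference was -0.24. Of these symbols, 7.92% were lower in TTP-tdTom by at least 2-fold and 0.324% were higher by at least 2-fold. With both groups rescaled to the same sum over all loci, 0% were lower and 99.8% higher by as much. With the same sum over the loci with a symbol, the shares were 6.67% lower and 0.357% higher. With the median set to 0 they were 3.47% lower and 0.549% higher. The 5 members that reached this level were PHLDA1, PHLDA2, PHLDA3, SLC22A18 and NAP1L4. PHLDA1 and PHLDA2 were lower by at least 2-fold, and 0 members were higher by as much. Since the members were chosen on this contrast, nothing is read from their count. Relative to the median of all these symbols, the log2 difference was -2.08 for PHLDA2, -1.13 for PHLDA1, 0.40 for PHLDA3, 0.37 for SLC22A18, 0.15 for NAP1L4 and -0.030 for CDKN1C.

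PHLDA2 stood at rank 11 of the 12032 symbols when ordered from the lowest log2 difference. The 10 symbols below it were SNORA31, SNORA70, SNORA66, MIR5047, SRCRB4D, SCARNA18, LOC493754, SNORD88B, IL8 and CAPS2, which include small nucleolar and microRNA genes. PHLDA1 stood at rank 261, where 2.16% of the symbols had a lower log2 difference. PHLDA3 and SLC22A18 lay near the other end, with 91.4% and 89.8% of the symbols below them. Among the 752 symbols with a tdTom FPKM at or above that of PHLDA2, itself included, the median log2 difference was -0.22, and 3 of them, PHLDA2 among these, had a log2 difference as low as that of PHLDA2.

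**Figure D3:**
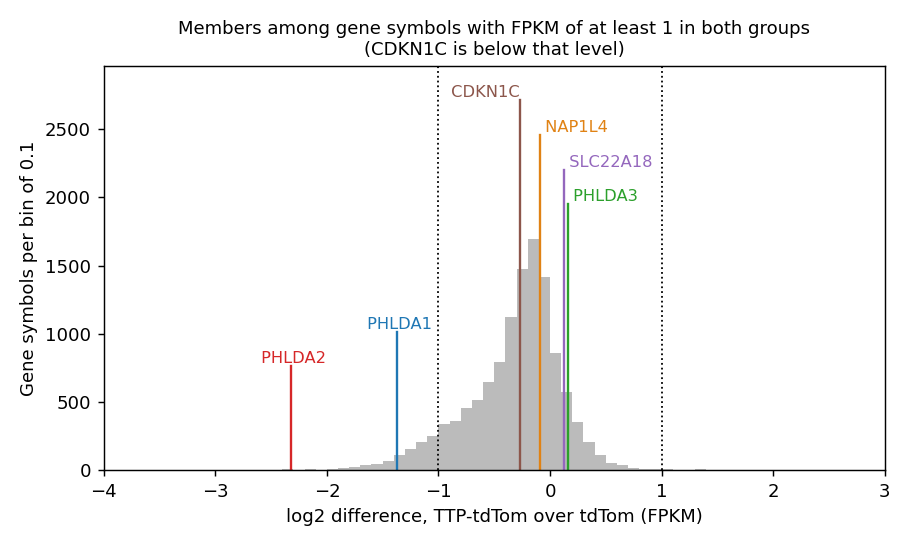
Histogram of the log2 difference (TTP-tdTom over tdTom) for the 12032 symbols that reached 1 FPKM in tdTom and TTP-tdTom alike, with a line for each member; line heights carry no value and dotted lines mark 2-fold. PHLDA2 at -2.32 and PHLDA1 at -1.38 lie in the lower tail, while the other members lie between -0.27 and 0.16. CDKN1C has a line but was under 1 FPKM and is not among the 12032 symbols. Rescaling over all loci would shift the whole plot to the right by 3.09, and over the loci with a symbol by 0.052.

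The make-up of the family differed between the groups. FPKM is scaled to length, so the paralogues can be set side by side. The summed level of the 3 genes was 115.7 FPKM in tdTom and 29.99 FPKM in TTP-tdTom, so that 25.9% was left. PHLDA2 gave 84.4% of this sum in tdTom and 65.3% in TTP-tdTom. PHLDA1 gave 11.6% and 17.2%, and PHLDA3 gave 4.08% and 17.5%. The level of PHLDA2 was 7.29 times that of PHLDA1 in tdTom and 3.80 times in TTP-tdTom. PHLDA1 was at 2.84 times the level of PHLDA3 in tdTom and at 0.981 times in TTP-tdTom. These ratios within a group do not move with any rescaling of the group. The order of levels in tdTom was PHLDA2, NAP1L4, PHLDA1, SLC22A18, PHLDA3 and CDKN1C. In TTP-tdTom it was NAP1L4, PHLDA2, SLC22A18, PHLDA3, PHLDA1 and CDKN1C. Which neighbours in these orders differ beyond their spread cannot be given from 1 value per group.

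PHLDA2 lies on chromosome 11 from 2949503 to 2950650, a locus of 1148 bases, in the cluster of 11p15.5 in which the noncoding RNA KCNQ1OT1 is made from the paternal copy and is known for silencing genes on that copy. SLC22A18 ends 2.83 kb from it, and NAP1L4 begins 14.7 kb away on the other side. Within 500 kb of PHLDA2, 7 other symbols reached 1 FPKM in both groups. Their log2 differences ran from -0.38 for ZNF195 to 0.13 for SLC22A18 with a median of -0.093, and 0 of them were past 2-fold. KCNQ1OT1 had 7.33 FPKM in tdTom and 7.42 FPKM in TTP-tdTom, and OSBPL5, an oxysterol-binding protein gene, had 7.12 and 7.48 FPKM. CARS, the cysteinyl-tRNA synthetase gene, had 13.9 FPKM in tdTom and 12.4 FPKM in TTP-tdTom. ZNF195, a zinc finger gene, had 19.7 FPKM in tdTom and 15.1 FPKM in TTP-tdTom, and the pseudogene OR7E12P had 1.99 and 1.81 FPKM. A count of 0 in 7 is near the shares over all symbols, 7.92% lower and 0.324% higher by at least 2-fold on the deposited scale. KCNQ1, with 0.0787 FPKM in tdTom and 0.190 FPKM in TTP-tdTom, and MRGPRG, with a log2 difference of 1.43 and 0.270 FPKM in TTP-tdTom, were past 2-fold in the other direction at these low levels, and MRGPRG is named after its values were seen.

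A wider list of 19 genes of the same imprinted region, which holds PHLDA2, SLC22A18, CDKN1C and NAP1L4, held 9 genes that reached 1 FPKM in both groups. PHLDA2, chosen for its difference, was the 1 of the 9 lower by at least 2-fold, beside 7.92% of all symbols, and the median log2 difference was -0.093 against -0.24 over all symbols. CD81, a tetraspanin gene, had 11.4 FPKM in tdTom and 9.20 FPKM in TTP-tdTom, and TSSC4 had 8.23 and 8.37 FPKM. H19 and the row shared by IGF2 and INS were under 1 FPKM in both groups. The loci without a symbol next to PHLDA2 were low as well. The 9 of them within 15 kb had between 0.271 and 0.993 FPKM in tdTom and between 0.041 and 1.11 FPKM in TTP-tdTom, 7 of them lower and 2 higher in TTP-tdTom. SLC22A18AS, which overlaps SLC22A18 on the other strand, had 0.277 FPKM in tdTom and 0.166 FPKM in TTP-tdTom in strand-specific libraries.

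PHLDA1 lies on chromosome 12 from 76417661 to 76425556 in a sparser region. On the deposited scale all 3 of its named neighbours that reached 1 FPKM were lower in TTP-tdTom. So were most symbols, since the upper quartile of the 12032 log2 differences was -0.055. After rescaling over all loci the 3 neighbours would be higher. The nearest named neighbour of PHLDA1, NAP1L1, begins 13.1 kb away and is a paralogue of NAP1L4. The PHLDA1 and PHLDA2 genes thus each have a NAP1 gene beside them. NAP1L1 had 106.8 FPKM in tdTom and 87.5 FPKM in TTP-tdTom, a log2 difference of -0.29. Further away, BBS10, a chaperonin-like gene of the primary cilium, had 4.72 FPKM in tdTom and 2.42 FPKM in TTP-tdTom, a log2 difference of -0.97. OSBPL8, an oxysterol-binding protein gene, had 16.7 FPKM in tdTom and 7.03 FPKM in TTP-tdTom, a log2 difference of -1.25. OSBPL8 was the 1 of these 3 neighbours past 2-fold, beside 7.92% of all symbols lower by as much. Among 20 loci without a symbol within 15 kb of PHLDA1, 13 were lower in TTP-tdTom and 7 higher. The highest of them, 153 bases long and 2128 bases from PHLDA1, had 13.1 FPKM in tdTom and was listed at 0 in TTP-tdTom. The other loci of this kind were all under 2 FPKM.

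PHLDA3 lies on chromosome 1 from 201431739 to 201438453. Within 500 kb of it, 11 other symbols reached 1 FPKM in both groups. Their log2 differences ran from -0.38 for TIMM17A to 0.62 for IGFN1, with a median of -0.14. On the deposited scale 0 of the 11 were past 2-fold, near the shares over all symbols, 7.92% lower and 0.324% higher by as much. The nearest of the 11, CSRP1, a LIM domain gene 14.2 kb away, had 29.3 FPKM in tdTom and 24.4 FPKM in TTP-tdTom. TMEM9 had 59.9 and 50.2 FPKM, and the desmosomal gene PKP1 had 52.5 and 47.6 FPKM. TNNI1, a troponin gene with several loci in the table, had 0.368 FPKM in tdTom and 2.57 FPKM in TTP-tdTom at the locus used, the largest log2 difference among the symbols of this window that reached 1 FPKM in either group. TIMM17A had 34.6 and 26.5 FPKM. The other genes of the window that reached 1 FPKM in either group had 1.12 to 9.80 FPKM in tdTom, namely IPO9, CACNA1S, KIF21B, SHISA4, LAD1, IGFN1, TNNT2 and NAV1. Of 17 loci without a symbol within 15 kb of PHLDA3, 6 were lower in TTP-tdTom and 11 higher, with no value over 2.80 FPKM.

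**Figure D4:**
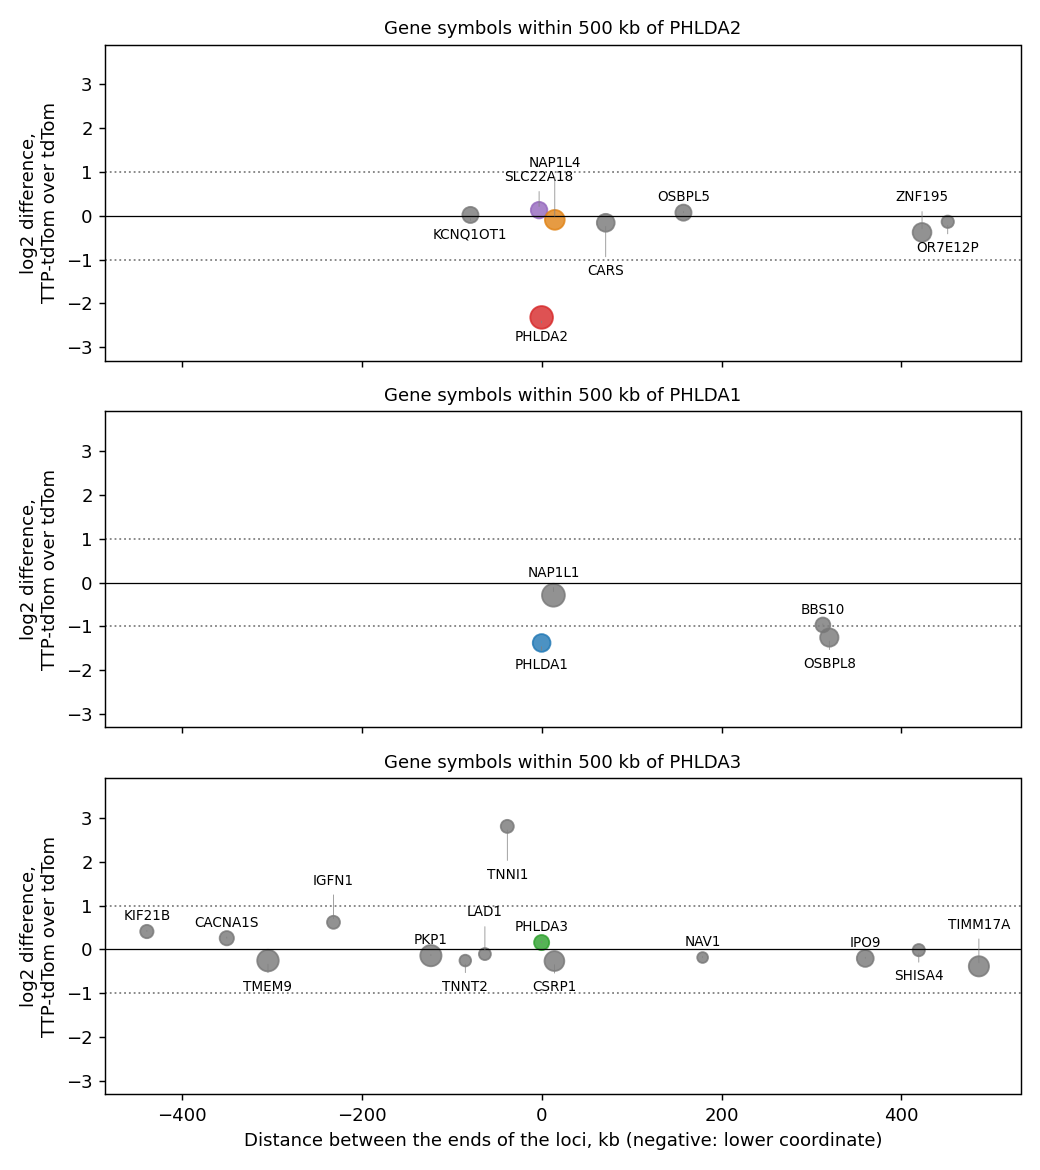
The log2 difference (TTP-tdTom over tdTom) of each symbol that reached 1 FPKM in either group, against the distance in kb from PHLDA2, PHLDA1 or PHLDA3; larger points have a higher FPKM and dotted lines mark 2-fold. PHLDA2 lies at -2.32 and its 7 neighbours between -0.38 and 0.13, while PHLDA1 has OSBPL8 at -1.25 in its window. Rescaling over all loci would add 3.09 to every point, and over the loci with a symbol 0.052.

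The heptamer of PHLDA2 begins 151 bases after its stop codon, and those of PHLDA1 begin 220, 315 and 2694 bases after. Of the 12032 symbols, 10385, or 86.3%, had a 3′ untranslated region in this annotation, and 36.5% of these held the heptamer. The region of PHLDA2 is short, and 13.6% of the 884 genes with one of a similar length (0.8 to 1.25 times) held the heptamer. For PHLDA1, whose region is long, the share among 1019 genes of similar length was 71.5%, and for PHLDA3 it was 40.0% of 1716 genes. The median log2 difference of the genes of similar length was -0.17 for PHLDA2, -0.36 for PHLDA1 and -0.28 for PHLDA3. Over all genes with such a region, the median log2 difference was -0.44 with the heptamer and -0.18 without it, with no allowance for the length of the region or for GC content, and the part of the heptamer in these differences was not tested. Among the members, the log2 difference was -1.38 for PHLDA1 with 3 copies, -0.093 for NAP1L4 with 2, -2.32 for PHLDA2 and -0.27 for CDKN1C with 1 each, and 0.16 for PHLDA3 and 0.13 for SLC22A18 with 0. These counts are for the longest annotated region. A shorter one of NAP1L4 (496 bases) and of CDKN1C (142 bases) holds 0, while the shorter one of PHLDA2 (261 bases) holds 1. Which of these transcripts the cells made was not tested.

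The members also differ in base composition. The transcript of PHLDA2 has a GC content of 63.1%, that of PHLDA1 44.3% and that of PHLDA3 59.6%, against a median of 47.8% over the genes with a 3′ untranslated region. Of the 829 other genes within 2 percentage points of PHLDA2, 0.241% were lower in TTP-tdTom by at least 2-fold, and 0 had a log2 difference as low as that of PHLDA2. Their median log2 difference was -0.094. Around the GC content of PHLDA1, 7.67% of 1708 genes were lower by at least 2-fold, the median was -0.32, and 30 genes were as low as PHLDA1. For PHLDA3 the median of 1211 genes of similar GC content was -0.11. The GC content of SLC22A18 was 66.0%, that of CDKN1C 63.8% and that of NAP1L4 50.2%. The part of GC content in these differences was not tested.

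The coding sequences of the paralogues are 1206 bases long in PHLDA1, 459 in PHLDA2 and 384 in PHLDA3. In their best local alignments, PHLDA1 and PHLDA2 shared 114 of 153 aligned positions (74.5%), PHLDA1 and PHLDA3 136 of 188 (72.3%), and PHLDA2 and PHLDA3 161 of 234 (68.8%). PHLDA1 and PHLDA2 thus had the highest identity of the 3 pairs, over the shortest alignment.

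Genes around the members in function were taken from lists drawn up with earlier results of these data known, and every direction given for them is that of the deposited scale, since rescaling over all loci turns all of those named as lower. In the NAP1 family, 5 of 7 genes reached 1 FPKM in both groups, and 1 of them, NAP1L3, was lower by at least 2-fold, beside 7.92% of all symbols, with 3.18 FPKM in tdTom and 1.44 FPKM in TTP-tdTom. SET, a histone chaperone of the same fold, had the highest level of the list, 262.5 FPKM in tdTom and 232.7 FPKM in TTP-tdTom. Fragments of near-identical stretches in NAP1L1 and NAP1L4 may be shared between them. Of the CDK inhibitors of the CIP/KIP and INK4 families, 6 of 7 reached 1 FPKM, all but CDKN1C. Of these 6, 0 were past 2-fold, near the shares over all symbols, 7.92% lower and 0.324% higher by as much. CDKN1B, which encodes p27Kip1, had 5.00 FPKM in tdTom and 3.01 FPKM in TTP-tdTom, and CDKN2D had the highest level with 43.4 and 43.5 FPKM. Of 11 SLC22 transporter genes, 5 reached 1 FPKM and their log2 differences lay between -0.16 and 0.13, SLC22A18 being at the upper end with the highest level. The PHLDB genes, which share the domain name with PHLDA, had log2 differences of 0.38 for PHLDB1, -0.47 for PHLDB2 and -0.0068 for PHLDB3, where PHLDB2 had the highest level with 18.8 FPKM in tdTom and 13.6 FPKM in TTP-tdTom.

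AKT is the kinase with which the PHLDA proteins compete for lipids. Of 16 genes of the AKT pathway, 13 reached 1 FPKM in both groups. PIK3CB, a catalytic subunit of PI3-kinase, was the 1 of these 13 genes lower by at least 2-fold, a share near the 7.92% of all symbols, with 17.7 FPKM in tdTom and 8.61 FPKM in TTP-tdTom. The median log2 difference of the list was -0.43. AKT1 had the highest level, 37.96 FPKM in tdTom and 29.4 FPKM in TTP-tdTom. Of the p53 target list, to which PHLDA3 belongs, 18 of 19 symbols were found and 15 reached 1 FPKM, with a median log2 difference of -0.40. Beside the 7.92% of all symbols, the 2 of these 15 genes lower by at least 2-fold were GADD45A, a stress-response gene with 41.8 FPKM in tdTom and 15.9 FPKM in TTP-tdTom, and RRM2B, a ribonucleotide reductase subunit with 19.8 and 8.04 FPKM. CCNG1 had the highest level of this list with 56.3 and 41.5 FPKM.

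PHLDA1 is also known as a gene induced by ERK signalling. Of 15 ERK-induced feedback genes, 13 reached 1 FPKM and 3 were lower by at least 2-fold, beside 7.92% of all symbols, with a median log2 difference of -0.51. SPRED1, an inhibitor of Ras signalling, had 15.3 FPKM in tdTom and 5.17 FPKM in TTP-tdTom, close to PHLDA1 on both counts. SPRY1, of the Sprouty family of inhibitors, had 7.90 FPKM in tdTom and 3.83 FPKM in TTP-tdTom, and the early response gene IER3 had 36.4 and 17.3 FPKM. FOSL1 had the highest level with 1404 FPKM in tdTom and 1261 FPKM in TTP-tdTom. Of 26 imprinted genes outside the PHLDA2 cluster, 12 reached 1 FPKM, and their median log2 difference was -0.29. UBE3A, a ubiquitin ligase gene, was the 1 of these 12 genes lower by at least 2-fold, a share near the 7.92% of all symbols, with 30.6 FPKM in tdTom and 14.2 FPKM in TTP-tdTom, and PEG10 had the highest level with 260.3 and 174.2 FPKM. In none of these 9 lists was a gene at 1 FPKM or more in both groups higher by at least 2-fold on the deposited scale. That is near the share over all symbols, of which 0.324% were higher by as much.

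**Figure D5:**
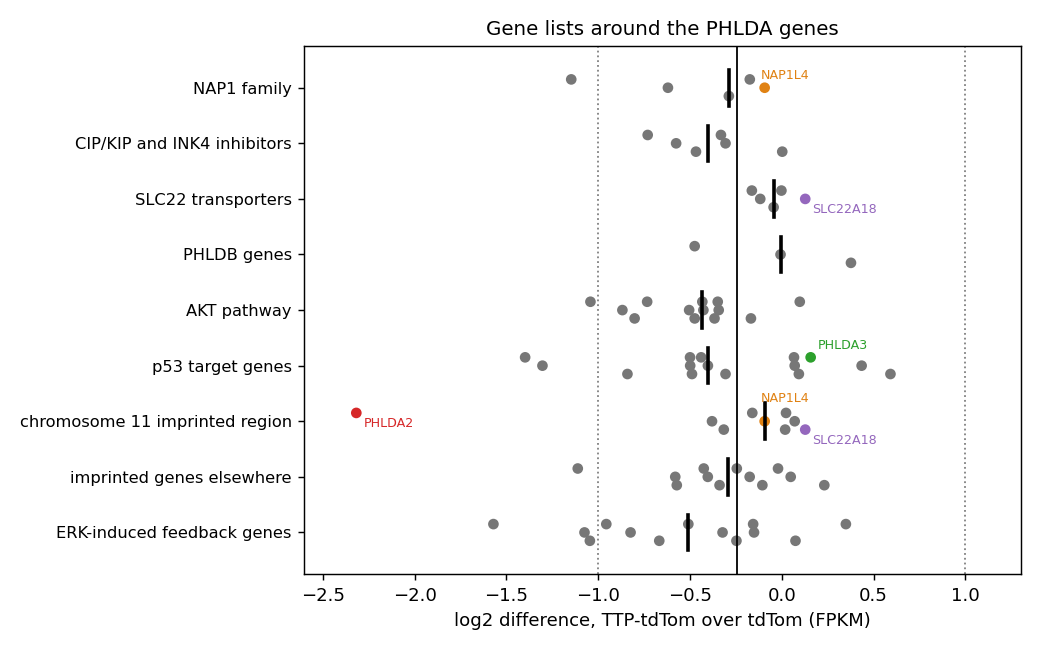
The log2 difference (TTP-tdTom over tdTom) of each listed gene that reached 1 FPKM in both groups, by list; short bars are list medians, the long line is the median of all 12032 symbols at -0.24, and dotted lines mark 2-fold. PHLDA2 at -2.32 has the lowest value of all lists, and SLC22A18 and NAP1L4 lie to the right of the median of all symbols. Rescaling over all loci would add 3.09 to every point, and over the loci with a symbol 0.052.

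The genes most like each PHLDA gene were those at the smallest distance from it over its log2 FPKM values, which are just 2 per gene, 1 for each group. For PHLDA2 the nearest symbols were IPW, SNORD116-10 and SNORD116-13, all at 1 imprinted locus with 88.7 FPKM in tdTom and 19.5 FPKM in TTP-tdTom. At other loci SNORD88B, with 82.9 FPKM in tdTom and 15.9 FPKM in TTP-tdTom, and SCOC, with 76.3 and 23.5 FPKM, came next, a pair added after their values were seen. For PHLDA1 they included C5orf30 and GHR, both with 13.1 FPKM in tdTom and with 5.27 and 5.29 FPKM in TTP-tdTom. For PHLDA3 they were CCDC106, CRTC1 and IFI6, with 4.69 to 4.72 FPKM in tdTom and 5.21 to 5.24 FPKM in TTP-tdTom.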

How the data were processed

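According to the methods and labels, strand-specific paired-end libraries were aligned by the authors with TopHat2 to Hs37D5 (GRCh37) and compared with Cufflinks, which gave the deposited FPKM values, 1 per group and gene locus; the submitters' processing notes list TopHat2 2.0.13 and Cufflinks 2.2.1. The table also holds the authors' fold changes, p-values and q-values of their comparison, which were not used. Group values are the authors' values, with no SD or n, so no test was run and "lower" or "higher" by at least 2-fold describes these values. The fits with values per sample were not run for the same reason.

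Each symbol was represented by the row with most RefSeq names, then the highest summed FPKM; each of the 6 members stood at 1 locus. Starts of loci are counted from 1. Members and lists were chosen with earlier results of these data known. Genes named by rule were the members and symbols within 500 kb of a PHLDA gene reaching 1 FPKM in either group. List members past 2-fold, the highest of each list, the 3 nearest symbols by level and ZFP36 were named too. Some of the neighbours are given by range. Other genes, such as CDKN1B, CD81, TSSC4 and KLK3, are named outside these rules. TIGAR was the 1 listed symbol not found under that name. Sequences came from GENCODE release 29 (GRCh38). Python 3.11.15, numpy 2.4.6, pandas 2.3.3 and matplotlib 3.10.9 were used, and the fold calls and row choice were tested on simulated data. The depth is unknown, since FPKM values hold no counts. Some genes that these rules and lists name are not reported here.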

Additional observations from a re-analysis of the deposited data

How the results depend on the processing

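No paired analysis was possible because the table holds 1 value per group, so leaving out replicates was not possible either. With a pseudocount of 0.1 FPKM the log2 difference was -1.36 for PHLDA1, -2.31 for PHLDA2, 0.154 for PHLDA3 and -0.243 for CDKN1C. With a pseudocount of 1 FPKM it was -1.22 for PHLDA1, -2.26 for PHLDA2, 0.131 for PHLDA3, 0.114 for SLC22A18 and -0.124 for CDKN1C. Centred on the median of symbols with an FPKM of at least 1, it was -1.13 for PHLDA1, -2.08 for PHLDA2, 0.399 for PHLDA3, 0.369 for SLC22A18, -0.030 for CDKN1C and 0.148 for NAP1L4. With the FPKM sums of named loci made equal, it was -1.32 for PHLDA1, -2.26 for PHLDA2, 0.209 for PHLDA3, 0.180 for SLC22A18, -0.219 for CDKN1C and -0.041 for NAP1L4. Rescaled to the same sum over all loci, of which 92.6% have no symbol, it was 1.72 for PHLDA1, 0.776 for PHLDA2, 3.25 for PHLDA3, 3.22 for SLC22A18, 2.82 for CDKN1C and 3.00 for NAP1L4, and 5 members were then past 2-fold, all higher, in place of 2. At a threshold of 3-fold, 1 member, PHLDA2, was past it. The share of symbols lower by at least 2-fold, 7.92%, was 8.52% with an FPKM above 0 and 6.95% with at least 10 in both groups. It was 3.47% after centring. The other choices of row left the members' values as they were. Without counts, no counting error can be given, and CDKN1C in particular was under 1 FPKM in both groups.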
